A study of Homo sapiens with 24 samples.

Results

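The genes described here encode 35 enzymes of 1 catalytic family, the dioxygenases that use iron and 2-oxoglutarate, with the TET enzymes set aside. They were chosen by name for their chemistry, with earlier results of these data known, and are 35 of the 58735 genes in the table. They comprise 17 histone lysine demethylases and related JmjC proteins, 9 nucleic acid demethylases and related proteins of the ALKBH and FTO families, and 9 protein hydroxylases. Their messenger RNA was counted in 2 human lines of acute myeloid leukemia cells, THP-1 and MOLM-13, which both carry a KMT2A-MLLT3 fusion. Cells of each line received L-ascorbic acid (LAA, vitamin C) at 250 µM, the PARP inhibitor olaparib at 1 µM, both agents (the combination), or PBS with DMSO as vehicle. All 8 groups were collected at 72 h, with 3 libraries each. Whether the replicates came from separate cultures is not stated in the labels, so the p-values cover the spread between these libraries alone, and that spread may be technical.

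Enzymes of this family split molecular oxygen at an iron atom, convert 2-oxoglutarate to succinate and oxidize a methyl group or a carbon of their substrate. Ascorbate returns the iron to its reduced form, so that the enzyme can turn over again. The family removes methyl groups from histones, DNA and RNA, hydroxylates lysine and proline in collagen, and hydroxylates the hypoxia-inducible factor (HIF). Several of its genes are themselves known HIF targets, PLOD2 and KDM4B among them. RNA levels say nothing of the activity of these enzymes, and no activity was measured here.

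Before the results, the libraries labelled MOLM-13 need a description. In vehicle, 765 of 17089 genes (4.48%) differed between the lines in edgeR's quasi-likelihood test, at the adjusted p of 0.05 used throughout. A set of 15 genes nearly silent in THP-1, which an earlier examination of these data had picked out after seeing their values, summed to at most 0.361 CPM (counts per library after TMM scaling, brought to 1 size) as a THP-1 group mean. In MOLM-13 the sum was 31.6 ± 0.888 CPM in vehicle, 5.34 ± 0.5 with LAA, 19.2 ± 1.37 with olaparib and 4.09 ± 1.04 with the combination (mean ± SD, n = 3). The MOLM-13 groups therefore did not carry those genes at 1 level, and MOLM-13 below means the libraries so labelled. Whether these libraries hold RNA of 1 line was not tested. A result seen in both lines is therefore not counted as an independent repeat. All 14 myeloid markers looked at were present in both lines at 1 CPM or more, summing to 5469 to 6917 CPM in THP-1 and 4699 to 6250 in MOLM-13. Markers of other cells summed in THP-1 and MOLM-13 to 10.3 to 20.9 and 4.21 to 10.4 CPM for T and NK cells, and to 3.47 to 5.84 and 3.61 to 6.66 CPM for B cells. The sums were 0.428 to 1.29 and 0.299 to 2.11 CPM for erythroid cells and megakaryocytes, and 0.824 to 3.47 and 1.25 to 3.01 CPM for epithelial cells and fibroblasts. PF4, HBB, DCN, COL3A1 and KRT19 were at 0. Depth was 18666259 to 25265870 counts per library. Mitochondrially encoded genes took 6.81 to 7.49% of counts in THP-1 vehicle and 7.77 to 9.47% in the THP-1 combination. In MOLM-13 they took 6.67 to 6.74% in vehicle, 7.01 to 8.14% with LAA, 8.22 to 11.0% with olaparib and 8.73 to 9.31% with the combination. Their part in the results below was not tested.

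In vehicle-treated THP-1 the family spanned a wide range of levels. Levels of different genes can be set side by side only per length, so the authors' FPKM values were used for this order. KDM4A, which demethylates lysines 9 and 36 of histone H3 (KDM standing for lysine demethylase), was highest at 37.2 ± 1.27 FPKM (SD, n = 3). ALKBH5, an eraser of the RNA mark m6A, followed at 30.2 ± 1.19 FPKM, and its libraries overlapped those of the collagen lysyl hydroxylase gene PLOD3 at 29.6 ± 0.866 FPKM. ALKBH7 (26.0 FPKM), PLOD1 (21.6), the H3K9 demethylase gene KDM3B (17.3) and JMJD1C (14.3) came next, with no overlap between neighbours. At the low end stood FTO (0.976 FPKM), ALKBH6 (0.398), OGFOD2 (0.259), KDM7A (0.122) and KDM6A (0.00942). The deposited gene model of FTO is 21379 bases long, and its counts were enough for testing in both lines.

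**Figure D1:**
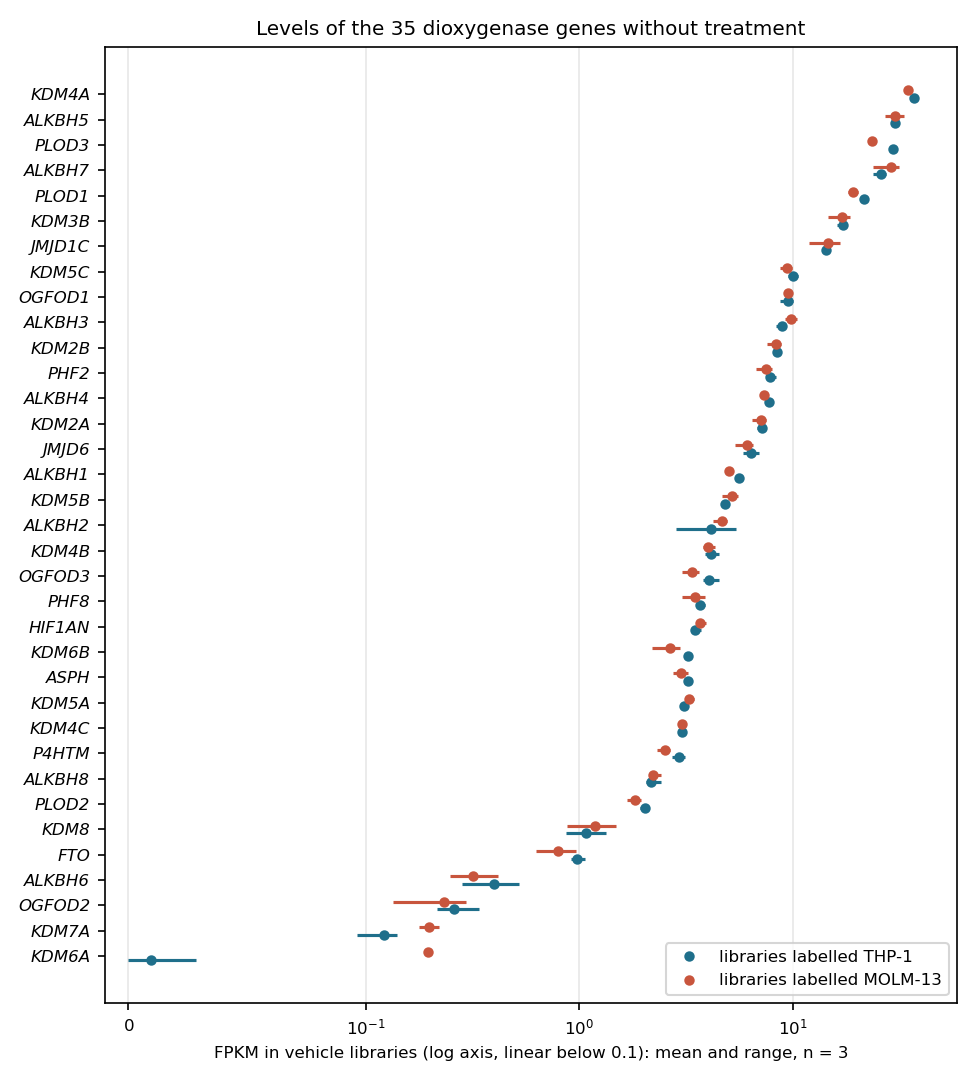
Level of each of the 35 members in vehicle libraries, in FPKM on a log axis, for THP-1 and the libraries labelled MOLM-13. Points are means of 3 libraries and horizontal bars the range; KDM4A stands highest and KDM6A lowest in THP-1.

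Between the lines, 33 of the 35 members were not called different in vehicle. PLOD3 was higher in THP-1 by 0.34 ± 0.06 on the log2 scale (log2 fold change ± SE; edgeR adjusted p = 0.000907), and KDM6A had 4 counts in THP-1 and 96 in MOLM-13, summed over 3 libraries.

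Treatment reached more of these genes in the combination than with either agent. With LAA alone 1 of the 34 members tested in THP-1 was called higher and 0 lower, where 1.49% of all genes were called (0.937% higher, 0.551% lower); KDM6A had too few counts there to be tested. In MOLM-13 LAA raised 2 of 35, and 1 was called lower (KDM6A, which passed the filter on low counts through its vehicle libraries), against 1.88% of all genes (0.792% higher, 1.08% lower). Olaparib alone gave 0 calls of 34 in THP-1 (edgeR; 5 at an unadjusted p under 0.05, 1 with DESeq2), where 0.269% of all genes were called and 9.28% had an unadjusted p under 0.05. In MOLM-13 it gave 0 of 35 (edgeR; 3 at an unadjusted p under 0.05, 0 with DESeq2), where 0.00619% were called and 8.38% had an unadjusted p under 0.05.

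With the combination 5 members rose and 9 fell in THP-1, 14 of 34 or 41.2%, where 27.1% of all genes tested were called (13.5% higher and 13.5% lower). In MOLM-13 4 were called higher and 5 lower, KDM6A among the latter, 9 of 35 or 25.7%, where 12.2% of all genes were called (4.85% higher, 7.35% lower). The median log2 fold change of the members in the THP-1 combination was 0.01, beside -0.01 for all genes. The 8 members called in both lines were PLOD3, OGFOD1, KDM6B and FTO, all higher in both, and PLOD2, ASPH, KDM4B and ALKBH7, all lower in both. In a direct test of whether the combination's effect differed between lines, 2 members of 35 were called, KDM5B and KDM6A, where 2.13% of all genes were. KDM6A entered that fit through MOLM-13 on low counts, so its call is a description only. For the effect of LAA the same test called 0 of 35 (edgeR; 3 at an unadjusted p under 0.05, 0 with DESeq2), where 0.14% of genes were called and 6.41% had an unadjusted p under 0.05.

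**Figure D2:**
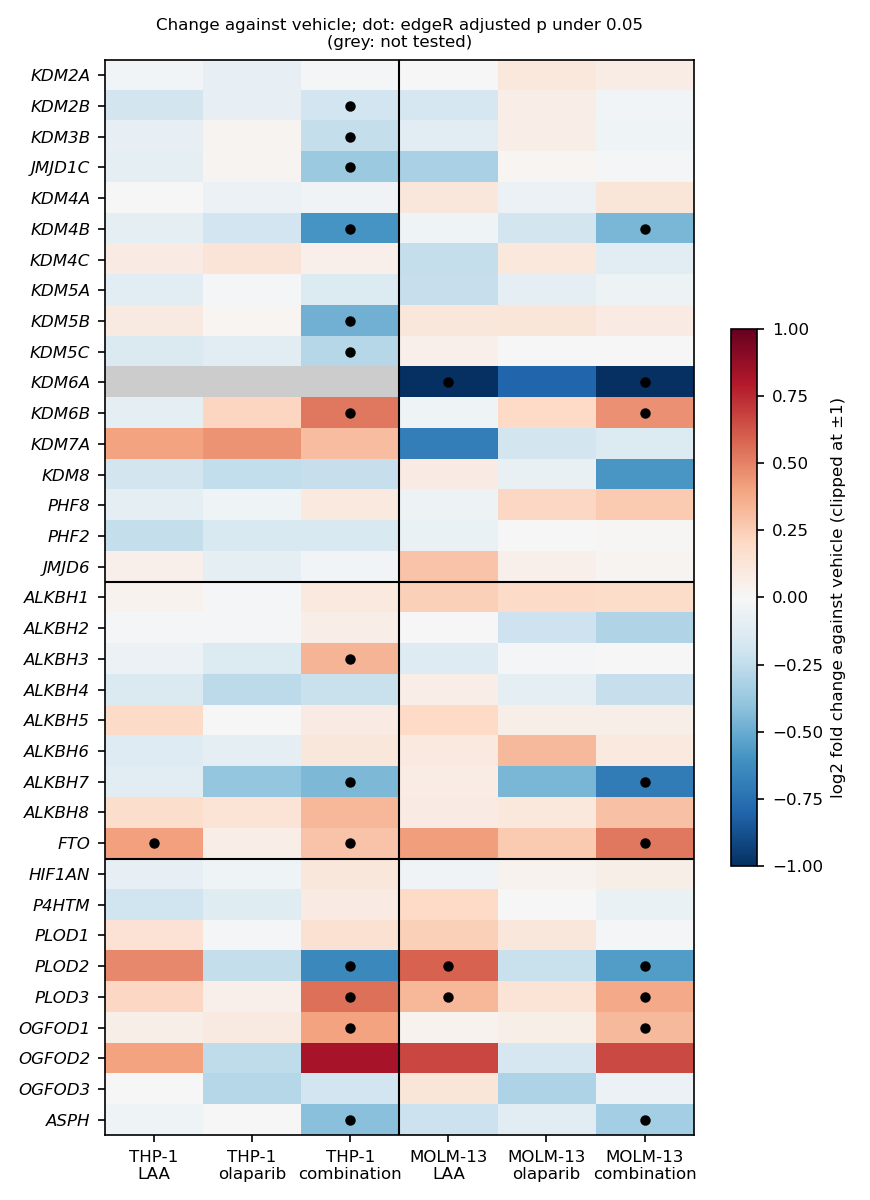
Log2 fold change of each member against vehicle (colour, limited to the range -1 to 1) for LAA, olaparib and the combination in each line. Dots mark an edgeR adjusted p under 0.05 and grey marks a member not tested; dots are found mainly in the 2 combination columns, 14 in THP-1 and 9 in MOLM-13.

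Among the protein hydroxylases, the 3 collagen lysyl hydroxylases went different ways. They hydroxylate lysine residues of procollagen in the endoplasmic reticulum, a step needed for stable collagen cross-links, and PLOD2 acts on the collagen telopeptides. PLOD3 also carries glycosyltransferase activity that adds sugars to hydroxylysine. Their promoters are shown because the genes moved in different directions and PLOD2 is a known HIF target. Each is the 300-base RefSeq window on GRCh38.p14, from 250 bases before to 50 after the RefSeq start, 5′ to 3′ on the gene's strand. A deposited gene model can begin elsewhere than that start. The windows are chr1:11934467-11934766 (plus strand) for PLOD1, chr3:146161135-146161434 (minus) for PLOD2 and chr7:101217532-101217831 (minus) for PLOD3. Capitals mark each match to the core of the hypoxia response element, ACGTG or GCGTG, on either strand (CACGT or CACGC when read in reverse).
PLOD1: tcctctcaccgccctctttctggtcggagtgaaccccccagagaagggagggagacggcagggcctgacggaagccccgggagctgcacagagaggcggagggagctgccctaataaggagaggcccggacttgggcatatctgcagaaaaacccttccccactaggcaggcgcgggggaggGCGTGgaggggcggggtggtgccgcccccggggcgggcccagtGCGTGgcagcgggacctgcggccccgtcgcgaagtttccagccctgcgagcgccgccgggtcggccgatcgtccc
PLOD2: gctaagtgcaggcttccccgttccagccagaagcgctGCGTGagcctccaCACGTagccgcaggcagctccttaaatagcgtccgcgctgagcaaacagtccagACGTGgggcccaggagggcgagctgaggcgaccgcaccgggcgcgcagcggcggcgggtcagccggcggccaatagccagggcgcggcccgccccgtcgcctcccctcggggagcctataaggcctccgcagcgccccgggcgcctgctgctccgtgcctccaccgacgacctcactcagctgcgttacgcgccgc
PLOD3: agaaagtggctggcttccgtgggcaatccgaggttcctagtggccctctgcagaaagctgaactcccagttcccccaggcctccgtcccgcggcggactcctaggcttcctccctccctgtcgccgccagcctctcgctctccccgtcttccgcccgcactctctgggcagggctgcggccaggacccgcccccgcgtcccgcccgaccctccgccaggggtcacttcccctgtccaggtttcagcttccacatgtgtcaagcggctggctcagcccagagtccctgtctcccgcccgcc
The PLOD2 window held 3 matches, the PLOD1 window 2 and the PLOD3 window 0. Among 35116 promoter entries of all genes 48.4% held at least 1 match and 10.1% held 3 or more. Of the 46 entries found for 33 members, 30 (65.2%) held a match; JMJD6 and ASPH had no entry. A match is a description of the letters, not a binding site.

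PLOD2 stood above vehicle with LAA and below it with the combination, in both lines. In THP-1 vehicle the libraries read 14.9, 16.0 and 16.3 CPM. With LAA they read 22.3, 20.2 and 23.5 CPM, with olaparib 14, 14.4 and 11.5 CPM, and with the combination 12.8, 7.71 and 9.78 CPM. Every LAA library lay above, and every combination library below, every vehicle library. MOLM-13 showed the same order, with 15.1, 12.9 and 14.2 CPM in vehicle, 21.4, 24.8 and 17.5 with LAA, 12.4, 10.8 and 12.8 with olaparib, and 9.78, 9.64 and 9.16 with the combination. Again the LAA, vehicle and combination libraries did not overlap. LAA raised PLOD2 1.51-fold in MOLM-13 (log2 0.59 ± 0.13, edgeR adjusted p = 0.0195), whereas in THP-1 the estimate of 1.40-fold did not pass (0.48 ± 0.14, edgeR adjusted p = 0.0842; 0.0181 without the filter on low counts). The combination lowered it 1.56-fold in THP-1 (log2 -0.65 ± 0.14, edgeR adjusted p = 0.00127) and 1.48-fold in MOLM-13 (-0.56 ± 0.13, adjusted p = 0.00877).

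Set directly against LAA, the combination lowered PLOD2 2.19-fold in THP-1 (log2 -1.13 ± 0.14, edgeR adjusted p = 1.09e-06) and 2.22-fold in MOLM-13 (-1.15 ± 0.13, edgeR adjusted p = 8.86e-06). In that comparison 4 members rose and 6 fell of 34 in THP-1, where 20.3% of all genes were called (10.1% higher, 10.2% lower). In MOLM-13 2 rose and 4 fell of 35, where 14.9% were called (6.68% higher, 8.25% lower). The interaction asks whether the combination differs from the sum of the effects of LAA and olaparib on the log2 scale. It was called for PLOD2 in THP-1 at -0.89 ± 0.20 (edgeR adjusted p = 0.00539) and in MOLM-13 at -0.93 ± 0.19 (edgeR adjusted p = 0.0095). Those interaction calls and the calls against LAA held with each library left out in turn. The MOLM-13 call with LAA did not survive leaving out vehicle replicate 2 or 3, or LAA replicate 1 or 2 (edgeR adjusted p = 0.125, 0.0794, 0.0799 and 0.0696). Against olaparib alone, the combination lowered PLOD2 1.32-fold in THP-1 (edgeR adjusted p = 0.0439), a call lost without olaparib replicate 1 or 2 or combination replicate 2 or 3 (0.124, 0.154, 0.264 and 0.102).

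PLOD3 rose with the combination in both lines. Its THP-1 libraries read 169, 174 and 165 CPM in vehicle, 189, 206 and 191 with LAA, 177, 166 and 183 with olaparib, and 256, 237 and 253 with the combination. The combination libraries lay above all others of the line, and the LAA libraries lay between them and vehicle. In MOLM-13 they read 133, 130 and 139 CPM in vehicle, 166, 155 and 184 with LAA, 148, 144 and 151 with olaparib, and 176, 174 and 172 with the combination, so that there the LAA and combination libraries overlapped. The combination raised PLOD3 1.46-fold in THP-1 (log2 0.55 ± 0.06, edgeR adjusted p = 7.49e-08) and 1.30-fold in MOLM-13 (0.38 ± 0.07, adjusted p = 0.00174). LAA raised it 1.26-fold in MOLM-13 (0.33 ± 0.07, edgeR adjusted p = 0.0193), a call lost without any 1 vehicle replicate or LAA replicate 1 or 3 (0.055 to 0.123); in THP-1 the LAA estimate of 0.21 was not called by edgeR (adjusted p = 0.0924) but passed with DESeq2 (0.0157) and with total-count scaling (0.0454). PLOD3 overlaps ZNHIT1 on the other strand, which an unstranded kit cannot separate. ZNHIT1 went from 91.6 to 104 CPM in the THP-1 combination (edgeR adjusted p = 0.137).

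PLOD1, the third lysyl hydroxylase, was not called by edgeR against vehicle in either line. Its THP-1 libraries read 117, 112 and 118 CPM in vehicle and 134, 122 and 133 with the combination (log2 0.15, edgeR adjusted p = 0.0675). That value passed with DESeq2 (adjusted p = 0.0348), with total-count scaling (0.0203) and without combination replicate 2 (0.0318). In MOLM-13 they read 97.2, 102 and 109 CPM in vehicle and 98.4, 106 and 98.8 with the combination, which overlap.

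**Figure D3:**
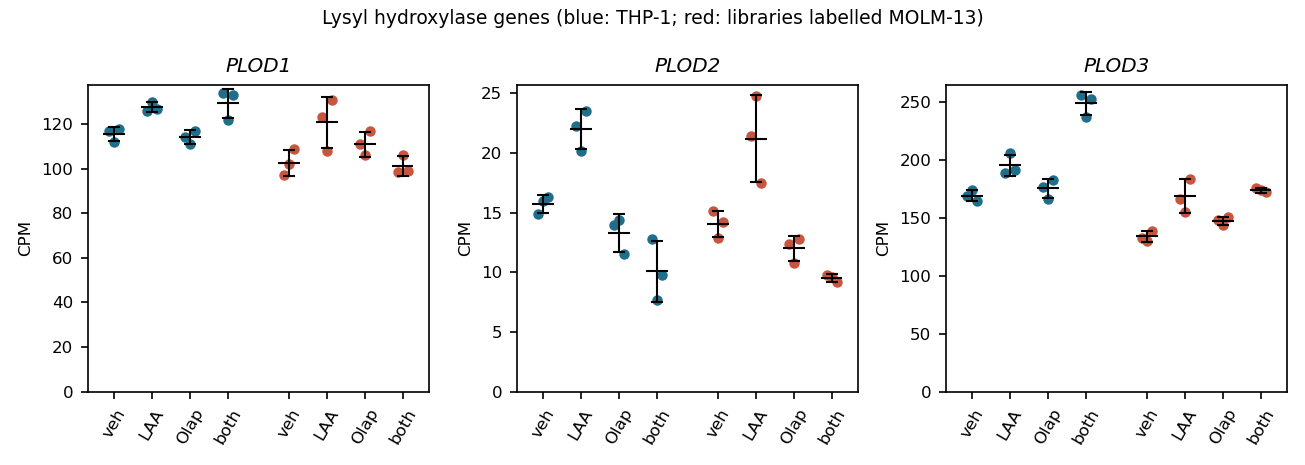
CPM of PLOD1, PLOD2 and PLOD3 in each library by line and treatment (veh is vehicle, both is the combination). Points are libraries, long bars means and error bars SD (n = 3); PLOD2 is highest with LAA and lowest with the combination in both lines, while PLOD3 is highest with the combination in THP-1.

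Of the other hydroxylases, OGFOD1 rose and ASPH fell. OGFOD1 hydroxylates a proline of the ribosomal protein RPS23. It read 51.0, 57.3 and 59.0 CPM in THP-1 vehicle, 58.0, 58.4 and 58.4 with LAA, 65.8, 54.9 and 57.5 with olaparib, and 71.2, 73.7 and 77.4 with the combination. In MOLM-13 it read 56.4, 55.5 and 55.4 CPM in vehicle, 56.7, 57.5 and 57.3 with LAA, 60.7, 58.5 and 54.5 with olaparib, and 67.5, 70.6 and 70.9 with the combination. In both lines the 3 combination libraries lay above the other 9. The rise over vehicle was 1.32-fold in THP-1 (log2 0.40 ± 0.08, edgeR adjusted p = 0.000292) and 1.25-fold in MOLM-13 (0.32 ± 0.07, edgeR adjusted p = 0.00671). OGFOD1 was also the 1 member of 35 called between the combination and olaparib in MOLM-13 (log2 0.27 ± 0.07, edgeR adjusted p = 0.0337), where 7.48% of all genes were called (2.89% higher, 4.59% lower); that call was lost without any 1 of the 6 libraries (adjusted p from 0.054 to 0.137). Its opposite-strand neighbours were not called in the combination (THP-1 edgeR adjusted p = 0.108 for BBS2 and 0.235 for NUDT21).

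ASPH hydroxylates aspartate and asparagine in epidermal growth factor-like domains. It read 62.3, 66.3 and 66.6 CPM in THP-1 vehicle, 67.4, 56.8 and 66.1 with LAA, 67.3, 67.5 and 59.9 with olaparib, and 47.3, 52.4 and 47.3 with the combination, which lay below the other 9 libraries. The fall was 1.34-fold in THP-1 (log2 -0.42 ± 0.08, edgeR adjusted p = 0.00028). MOLM-13 libraries read 55.5, 65.1 and 60.9 CPM in vehicle, 52.5, 59.7 and 44.2 with LAA, 62.9, 55.7 and 49.1 with olaparib, and 46.4, 48.7 and 48.1 with the combination. There the combination libraries lay below vehicle but overlapped LAA, and the 1.27-fold fall (-0.34 ± 0.11, edgeR adjusted p = 0.0464) was lost without any 1 of the 6 libraries (adjusted p from 0.0507 to 0.157) and with total-count scaling (0.139). HIF1AN, the asparagine hydroxylase that blocks the HIF transactivation domain, P4HTM, OGFOD2 and OGFOD3 were not called against vehicle in either line.

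Of 16 histone demethylases tested in the THP-1 combination 1 was called higher and 6 lower, where 13.5% of all genes were called in each direction. In MOLM-13 1 was higher and 2 lower of 17, KDM6A among the latter, where 4.85% of all genes were higher and 7.35% lower. KDM4B, a demethylase of trimethylated lysine 9 of histone H3 and a known HIF target, fell in both lines. Its RefSeq promoter window, chr19:4968863-4969162 (plus strand, GRCh38.p14), is shown with the same capitals because the gene is a HIF target that fell in both lines. It held 4 matches, and the windows of ALKBH5 and KDM4C, which were not called, and of KDM6A held 4, 5 and 5. The KDM4B matches at positions 10 and 11 from its 5′ end overlap in 1 palindrome and the others start at 27 and 174.
KDM4B: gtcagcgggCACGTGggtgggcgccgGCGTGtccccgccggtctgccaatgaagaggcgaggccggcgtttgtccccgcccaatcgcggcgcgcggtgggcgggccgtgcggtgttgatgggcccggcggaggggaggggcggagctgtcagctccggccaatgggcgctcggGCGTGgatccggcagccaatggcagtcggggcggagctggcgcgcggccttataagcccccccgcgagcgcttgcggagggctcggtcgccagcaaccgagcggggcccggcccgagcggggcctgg

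KDM4B read 59.2, 67.1 and 57.6 CPM in THP-1 vehicle, 57.9, 61.4 and 52.4 with LAA, 52.2, 52.7 and 56.2 with olaparib, and 41.1, 42.8 and 38.7 with the combination. The MOLM-13 libraries held 56.7, 58.4 and 64.3 CPM in vehicle, 61.6, 57.3 and 54.9 with LAA, 50.9, 54.5 and 52.1 with olaparib, and 43.9, 45.7 and 41.2 with the combination. In each line the combination libraries were the 3 lowest of 12. The fall was 1.51-fold in THP-1 (log2 -0.59 ± 0.08, edgeR adjusted p = 3.42e-06) and 1.37-fold in MOLM-13 (-0.46 ± 0.08, adjusted p = 0.00113). Both calls held with each library left out in turn.

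KDM5B removes methyl groups from lysine 4 of histone H3, a mark of active promoters, and was, with KDM6A, 1 of the 2 members whose response to the combination was called different between the lines. In THP-1 it read 132, 123 and 122 CPM in vehicle, 140, 131 and 130 with LAA, 133, 133 and 116 with olaparib, and 89.9, 93.4 and 87.9 with the combination. The combination libraries stood apart below all others, 1.40-fold under vehicle (log2 -0.48 ± 0.07, edgeR adjusted p = 4.01e-06). In MOLM-13 the gene read 121, 144 and 143 CPM in vehicle, 152, 158 and 130 with LAA, 150, 139 and 155 with olaparib, and 135, 155 and 143 with the combination, all overlapping (combination 0.09 ± 0.09, edgeR adjusted p = 0.601). The difference between the lines in the combination's effect was -0.56 ± 0.11 (THP-1 minus MOLM-13, log2; edgeR adjusted p = 0.00437), a call that held with each library left out in turn. In THP-1 the interaction was called at -0.59 ± 0.10 (edgeR adjusted p = 0.000115), and neither agent alone was called. That interaction was 1 of 5 among 34 members in THP-1 (2 higher, 3 lower). Of all genes 7.57% were called there, 4.04% higher and 3.54% lower. MOLM-13 had 1 of 35, PLOD2, which was lower, where 2.04% of all genes were called, 0.712% higher and 1.32% lower.

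KDM6B, a demethylase of trimethylated lysine 27 of histone H3 that is induced in activated macrophages, rose. It read 24.1, 24 and 22.7 CPM in THP-1 vehicle, 22.0, 22.6 and 21.8 with LAA, 24.3, 29.8 and 27.9 with olaparib, and 34, 35 and 33.7 with the combination, the 3 highest of the line. The rise was 1.44-fold (log2 0.53 ± 0.09, edgeR adjusted p = 8.90e-05). Its MOLM-13 libraries read 16.0, 21.1 and 21.7 CPM in vehicle, 21.2, 17.2 and 18.7 with LAA, 20.1, 20.7 and 26.6 with olaparib, and 25.4, 28.8 and 26.4 with the combination. Those combination libraries lay above vehicle and overlapped olaparib. The MOLM-13 rise of 1.37-fold (0.46 ± 0.13, edgeR adjusted p = 0.0291) was lost without vehicle replicate 1 or combination replicate 2 or 3 (0.161, 0.131 and 0.0711).

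KDM6A, the other H3K27 demethylase of the list, lies on chromosome X and had few counts. In THP-1 it read 0, 0.203 and 0 CPM in vehicle, 0.243, 0.102 and 0.234 with LAA, 0, 0.344 and 0.125 with olaparib, and 0.656, 0.524 and 0.370 with the combination. These are 4, 12, 10 and 32 counts summed over 3 libraries, too few for a test in that line. In MOLM-13 the libraries read 1.48, 1.37 and 1.38 CPM in vehicle, 0.256, 0.103 and 0.177 with LAA, 0.431, 1.08 and 0.912 with olaparib, and 0.362, 0.405 and 0.348 with the combination, from 96, 11, 49 and 24 counts. The vehicle libraries lay above all other MOLM-13 libraries. KDM6A passed the filter on low counts in MOLM-13 through these vehicle libraries, so a lower level elsewhere had to appear in the fit. Its fitted log2 fold changes, -2.94 with LAA and -1.90 with the combination, are therefore given as a description only. The combination's call was lost without combination replicate 1, 2 or 3 (edgeR adjusted p = 0.051, 0.056 and 0.0599).

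The order of the MOLM-13 groups for KDM6A was not that of the THP-1 groups. The joint fit of both lines called KDM6A in vehicle and in the combination's effect, but the gene entered that fit through MOLM-13 and its THP-1 counts are near 0. Those calls are a description, with no fold given here. The second was lost without THP-1 vehicle replicate 1 or 3 (edgeR adjusted p = 0.0616 and 0.0569). The neighbouring gene FUNDC1, one of the 15 genes nearly silent in THP-1, had 45 counts in MOLM-13 vehicle, 8 with LAA, 32 with olaparib and 6 with the combination, and 0, 0, 0 and 5 in the same THP-1 groups. The summed level of those 15 genes, 31.6 CPM in MOLM-13 vehicle, was likewise lower in the other MOLM-13 groups and least so with olaparib. It was lowest with the combination (4.09 CPM, beside 5.34 with LAA), whereas KDM6A was lowest with LAA. Its part in the KDM6A result was not tested.

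**Figure D4:**
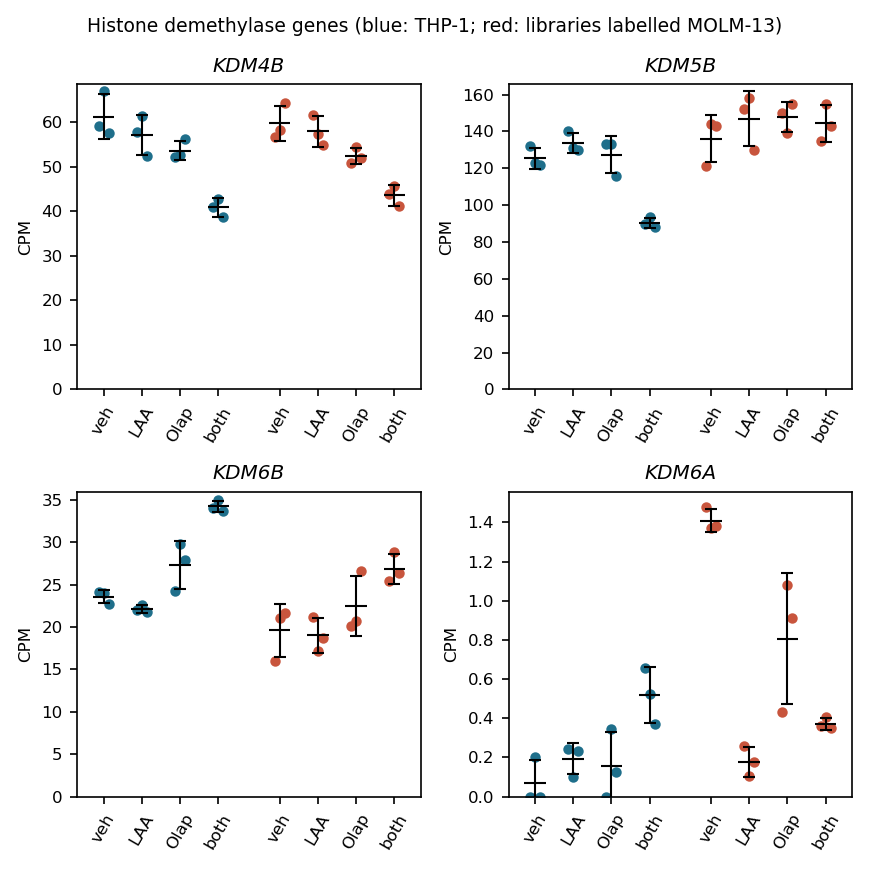
CPM of histone demethylase genes in each library by line and treatment (veh is vehicle, both is the combination). Points are libraries, long bars means and error bars SD (n = 3); KDM4B is lowest with the combination in both lines, KDM5B in THP-1, and KDM6A is near 0 in THP-1.

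The other called demethylases changed less and in THP-1. JMJD1C, a JmjC protein related to the H3K9 demethylases, read 164, 152 and 162 CPM in vehicle and 130, 131 and 110 with the combination, with no overlap (1.29-fold lower, edgeR adjusted p = 0.000862). MOLM-13 cells read 133, 186 and 170 CPM in vehicle and 146, 178 and 159 with the combination, and was not called (adjusted p = 0.956). KDM5C, an H3K4 demethylase gene, was 1.22-fold lower in the THP-1 combination (edgeR adjusted p = 0.00308). KDM3B was 1.18-fold lower there (edgeR adjusted p = 0.0104), a call lost without vehicle replicate 1 or 3 or combination replicate 3 (0.0651, 0.059 and 0.0764). KDM2B, an H3K36 demethylase that recruits a BCOR complex to CpG islands, was 1.14-fold lower (adjusted p = 0.0353), and this was lost without any 1 of the 6 libraries (0.0523 to 0.137).

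The ALKBH and FTO families gave 2 higher and 1 lower of 9 in the THP-1 combination (33.3%, beside 27.1% of all genes) and 1 of each in MOLM-13 (22.2%, beside 12.2%). FTO, which removes methyl groups from m6A and from the cap-adjacent m6Am of messenger RNA, was higher with LAA and with the combination. Its THP-1 libraries read 20.3, 19.8 and 23.1 CPM in vehicle, 29.4, 28.4 and 26.1 with LAA, 20.4, 22.2 and 23.6 with olaparib, and 26.0, 26.0 and 25.4 with the combination. The LAA libraries were above all vehicle and olaparib libraries. The LAA rise was 1.33-fold in THP-1 (log2 0.41 ± 0.10, edgeR adjusted p = 0.0275) and was lost without vehicle replicate 1 or 2 or LAA replicate 1 or 2 (0.125, 0.195, 0.139 and 0.0697). The combination's 1.22-fold rise (0.29 ± 0.10, edgeR adjusted p = 0.0306) was lost without any 1 of the 6 libraries but vehicle replicate 3 (0.0502 to 0.131), and without the filter on low counts (0.0857).

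In MOLM-13 FTO read 13.6, 20.7 and 17.1 CPM in vehicle, 25.9, 23.0 and 19.5 with LAA, 19.8, 20.0 and 21.6 with olaparib, and 22.3, 25.4 and 26.1 with the combination. The LAA and vehicle libraries overlapped there, and the LAA estimate of 0.41 ± 0.14 was not called (edgeR adjusted p = 0.145). The combination raised FTO 1.44-fold (0.52 ± 0.14, edgeR adjusted p = 0.016), a call lost without vehicle replicate 1 or 3 or combination replicate 2 or 3 (0.0994, 0.0531, 0.0661 and 0.0703). FTO overlaps RPGRIP1L on the other strand, at 4.93 CPM in THP-1 vehicle, which was not called (edgeR adjusted p = 0.577 in the THP-1 combination).

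ALKBH7, a mitochondrial member of the family with a part in programmed necrosis after alkylation damage, was lower with the combination. It read 34.8, 40.1 and 39.4 CPM in THP-1 vehicle, 36.3, 35.6 and 34 with LAA, 26.1, 27.5 and 33.4 with olaparib, and 27.3, 28.9 and 28 with the combination. Olaparib and combination libraries all lay below vehicle. The combination's fall was 1.37-fold (log2 -0.45 ± 0.10, edgeR adjusted p = 0.000768), and the olaparib value of -0.39 was not called (adjusted p = 0.1; 0.03 with DESeq2 and 0.032 without the filter). In MOLM-13 ALKBH7 read 46.2, 34.9 and 46.2 CPM in vehicle, 45.8, 39.3 and 49.0 with LAA, 33.0, 34.7 and 25.2 with olaparib, and 28.6, 22.4 and 27.5 with the combination. All 6 libraries with olaparib were again below vehicle, and the combination's fall was 1.63-fold (-0.70 ± 0.14, edgeR adjusted p = 0.00195). The olaparib value was -0.46 ± 0.14 (edgeR adjusted p = 0.452; 0.00477 without the filter). The opposite-strand neighbour PSPN was not called in either combination (THP-1 edgeR adjusted p = 0.613).

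ALKBH3 repairs alkylated bases in single-stranded DNA and RNA, and rose in THP-1. It read 22.2, 19.9 and 22.2 CPM in vehicle, 19.3, 22.1 and 20.5 with LAA, 19.0, 19.1 and 20.2 with olaparib, and 28.4, 25.3 and 28.2 with the combination, above the other 9. The rise was 1.27-fold (log2 0.34 ± 0.10, edgeR adjusted p = 0.0104; 0.0679 without vehicle replicate 2), and the interaction was called at 0.54 ± 0.14 (adjusted p = 0.0167; 0.0576 without vehicle replicate 3 and 0.0609 without LAA replicate 1). The values in MOLM-13 were 25.0, 23.0 and 22.1 CPM in vehicle and 24.1, 24.5 and 21.7 with the combination, which overlap. ALKBH1, ALKBH2, ALKBH4, ALKBH5, ALKBH6 and ALKBH8 were not called against vehicle in either line.

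**Figure D5:**
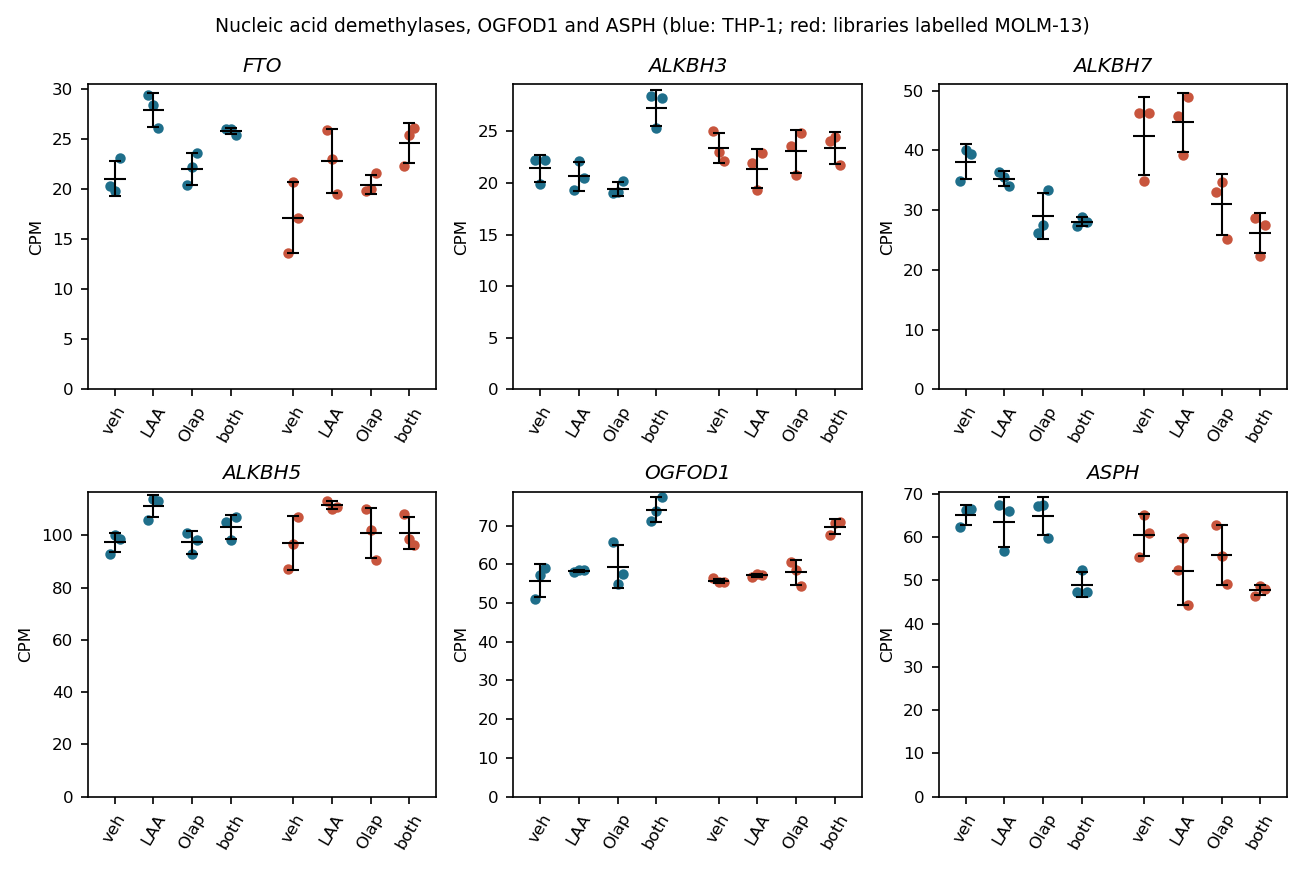
CPM of FTO, ALKBH3, ALKBH7, ALKBH5, OGFOD1 and ASPH in each library by line and treatment (veh is vehicle, both is the combination). Points are libraries, long bars means and error bars SD (n = 3). ALKBH7 is lower with the combination in both lines, and ALKBH3 is highest with the combination in THP-1. The lower ALKBH7 means with olaparib alone were not called by edgeR in either line.

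The other interactions called in THP-1 were PLOD3 at 0.29 ± 0.08 (edgeR adjusted p = 0.0355) and ASPH at -0.38 ± 0.11 (edgeR adjusted p = 0.0411). Each was lost without any 1 of 9 of the 12 libraries, with adjusted p from 0.0647 to 0.115 for PLOD3 and 0.0647 to 0.132 for ASPH. In both genes the remaining 3 were LAA replicate 2, olaparib replicate 3 and combination replicate 2. With the replicate number as a block the adjusted p was 0.0557 for PLOD3 and 0.0628 for ASPH. Against olaparib, the combination in THP-1 had 5 members higher and 6 lower of 34, where 24.2% of all genes were called (12.3% higher, 11.9% lower). KDM5B (1.42-fold lower), PLOD3 (1.41-fold higher) and ALKBH3 (1.39-fold higher) were among them, each with an edgeR adjusted p of at most 0.00063.

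In all, 20 of the 35 members were not called against vehicle by edgeR in any comparison of either line; PLOD1 is among them, with the DESeq2 call given above. Their vehicle means spanned 1.16 to 194 CPM in THP-1, and their log2 fold changes in the combination spanned -0.23 for KDM8 to 0.82 for OGFOD2. In MOLM-13 the vehicle means were 1.09 to 181 CPM and the span in the combination was -0.58 for KDM8 to 0.66 for OGFOD2. The smallest edgeR adjusted p among the 20 was 0.0675 in the THP-1 combination and 0.105 in the MOLM-13 combination.

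Relatives of the members, taken from lists that were drawn up with earlier results of these data known, were set beside them. Of 25 other 2-oxoglutarate dioxygenases tested in THP-1, 3 rose and 6 fell with the combination, and of 26 in MOLM-13 0 rose and 4 fell, with medians of -0.02 and 0.02. Among all genes 13.5% were called in each direction in THP-1, and 4.85% higher and 7.35% lower in MOLM-13. P4HA1, a catalytic subunit of the collagen prolyl hydroxylase, went from 87.3 ± 2.96 to 52.7 ± 1.59 CPM in THP-1 (SD, n = 3; 1.67-fold lower, edgeR adjusted p = 2.28e-08) and was 1.76-fold lower in MOLM-13 (adjusted p = 1.66e-06). EGLN3, a HIF prolyl hydroxylase whose gene is itself a HIF target, went from 2.59 ± 0.912 to 0.285 ± 0.202 CPM (edgeR adjusted p = 1.00e-05) and from 2.85 ± 0.871 to 0.369 ± 0.114 CPM (adjusted p = 8.08e-05). JARID2, a JmjC protein of the Polycomb complex PRC2 that lacks demethylase activity, was 1.68-fold lower in THP-1 (edgeR adjusted p = 1.52e-07). In MOLM-13 it was 1.31-fold lower (adjusted p = 0.0276), a call lost without vehicle replicate 2 or 3 or combination replicate 1 or 3 (0.0703 to 0.137) and with total-count scaling (0.0931). ASPHD2, P3H2 and the collagen prolyl 3-hydroxylase gene P3H1 rose in THP-1 by 2.63-, 5.20- and 1.21-fold (edgeR adjusted p = 4.75e-05, 0.000465 and 0.000481).

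A list of 9 dioxygenases known as HIF targets, which includes PLOD2 and KDM4B, had 0 higher and 6 lower in the THP-1 combination (median log2 -0.59, beside -0.01 for all genes). There 13.5% of all genes were called in each direction. In MOLM-13 it had 0 higher and 5 lower (median -0.46, beside 0.00), where 4.85% of all genes were higher and 7.35% lower. This list too was drawn up with earlier results of these data known. Its members PLOD1, KDM4C and P4HA2 were not called in the THP-1 combination by edgeR with the main settings. PLOD1 was called higher there with DESeq2 (log2 0.16, adjusted p = 0.0348) and in edgeR with total-count scaling (adjusted p = 0.0203). The THP-1 call of EGLN1, the main HIF prolyl hydroxylase gene, was lost without any 1 of 5 of the 6 libraries (adjusted p up to 0.161) and with total-count scaling (0.148). With LAA alone the edgeR counts were 0 and 0 in THP-1, and 1 and 0 in MOLM-13, where the 1 was PLOD2. Of the 9 genes 2 had an unadjusted p under 0.05 in THP-1, a measure whose share over all genes is not given here. LAA gave calls for 1.49% of all genes in THP-1 and 1.88% in MOLM-13. KDM3A, an H3K9 demethylase gene of this list chosen for mention after its values were seen, was 1.61-fold lower in THP-1 (edgeR adjusted p = 1.14e-05) and 1.41-fold lower in MOLM-13 (adjusted p = 0.00325).

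Genes that carry ascorbate or supply 2-oxoglutarate had 5 higher and 3 lower of 19 in the THP-1 combination, and 1 higher and 4 lower in MOLM-13. The shares of all genes were 13.5% in each direction in THP-1, and 4.85% higher and 7.35% lower in MOLM-13. SLC2A3, a transporter of glucose and oxidized ascorbate, fell from 6.67 ± 0.203 to 2.55 ± 0.769 CPM in THP-1 (SD, n = 3, edgeR adjusted p = 2.69e-05). In MOLM-13 it fell from 19.1 ± 1.45 to 4.31 ± 0.576 CPM (edgeR adjusted p = 4.77e-08). With LAA alone SLC2A3 was the 1 gene of 19 called in MOLM-13, also lower, where 1.08% of all genes were called lower. That call was lost without vehicle replicate 2 (edgeR adjusted p = 0.0507). Whether its MOLM-13 falls go with those of the 15 genes nearly silent in THP-1 was not tested. SLC2A1, a transporter of the same family, was 1.44-fold lower in THP-1 (edgeR adjusted p = 7.34e-08) and not called in MOLM-13 (0.0881). IDH1, IDH3G and IDH3B, isocitrate dehydrogenase genes, were 1.22-, 1.27- and 1.29-fold higher in THP-1 (edgeR adjusted p = 0.0012, 0.00236 and 0.00354) and not called in MOLM-13. GSTO1, whose product can reduce oxidized ascorbate, lost its THP-1 call without vehicle replicate 2 or 3 or combination replicate 1 (adjusted p = 0.149, 0.164 and 0.311).

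Partner proteins of the histone demethylases had 1 higher and 4 lower of 25 in the THP-1 combination and 0 called in MOLM-13 by edgeR. In MOLM-13 7 had an unadjusted p under 0.05 in edgeR, a measure whose share over all genes is not given here. DESeq2 was not counted for this list. The shares of all genes were 13.5% in each direction in THP-1, and 4.85% higher and 7.35% lower in MOLM-13. BCOR, a KDM2B partner, was 1.24-fold lower in THP-1 (edgeR adjusted p = 0.00133) and HDAC1 1.20-fold lower (0.00118). BCORL1 was 1.26-fold lower (edgeR adjusted p = 0.0207), a call lost without vehicle replicate 1 or combination replicate 1 or 3 (0.177, 0.0671 and 0.0729). The other 2 were SKP1, which was 1.13-fold higher (edgeR adjusted p = 0.0429), and DPY30, and each lost its call without at least 4 of the 6 libraries. Of 15 tested genes that write, read or bind m6A beside FTO and ALKBH5, 1 rose and 2 fell in THP-1, and of 17 in MOLM-13 0 rose and 2 fell. Those 2 were IGF2BP1 and IGF2BP3, named after their values were seen. IGF2BP3 is one of the 15 genes nearly silent in THP-1. It was not tested there. Fewer genes of this list passed the filter on low counts in THP-1 than in MOLM-13. In vehicle 2 of the 17 were called lower in THP-1 than in MOLM-13. The MOLM-13 falls of IGF2BP1 and IGF2BP3 are therefore a description only. The shares of all genes given above apply to these counts too. The 3 called in THP-1, YTHDF1, HNRNPA2B1 and IGF2BP2, each lost the call without at least 4 of the 6 libraries, with adjusted p up to 0.23.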

How the data were processed

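PolyA-selected RNA of 24 libraries was sequenced, with 3 libraries per group, from an unstranded kit, per the labels' protocols. HISAT2, SAMtools, DESeq2 and the genome build hg38 are named in the submitters' processing notes, without versions. How reads were counted, whether by strand, and on which gene annotation is not given in the sources used here. For 58735 genes the authors deposited whole-number counts. They also deposited FPKM values, which divide counts by gene length and library size. All columns were used.

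The 12 libraries of a line entered 1 edgeR fit (version 4.0.16, R 4.3.3; filterByExpr, TMM scaling, quasi-likelihood F test on group means), with Benjamini-Hochberg adjustment over all genes tested and a threshold of 0.05. Line differences came from 1 fit of all 24 libraries. Levels are CPM with TMM scaling over the 24 libraries, and an SE is the absolute log2 fold change over the square root of F. In simulated data for the THP-1 combination (15713 genes), 92% and 84% of genes changed by 1 and -1 on the log2 scale were called. Of those changed by 0.585 and -0.585, 78% and 62% were called. The simulation changed 50 genes at each size, all above 1 CPM in vehicle, and left 15513 unchanged. In the data 27.1% of genes were called in this comparison, so the simulated shares are not rates for the data. Settings tried instead were no filter on low counts, total-count scaling, the replicate number as a block, DESeq2 1.42.0 and leaving out each library. Promoters came from RefSeq (GRCh38.p14).

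The members and lists were chosen with earlier results of these data known. Library values are given for members with an adjusted p under 0.05 and a log2 fold change of at least 0.4 in size in a comparison against vehicle, and for those at least 4-fold apart between the lines in vehicle; values of PLOD1, ALKBH3 and JMJD1C were added after they were seen. From each list of other genes at most 3 per direction with the smallest adjusted p in the THP-1 combination are named; KDM3A, EGLN1, DPY30, IGF2BP1 and IGF2BP3 fall outside that rule and were named after their values were seen. Where a gene overlaps another on the opposite strand, their reads cannot be told apart. KDM6A has a related gene on another chromosome, and how the counting treated any reads shared with it is not known.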

Additional observations from a re-analysis of the deposited data

Results flagged for a closer look

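In the test of whether the combination's effect differed between the lines (THP-1 minus MOLM-13), KDM5B differed by -0.56 on the log2 scale: every THP-1 combination library was below vehicle, and the MOLM-13 groups overlapped. KDM6A differed by 4.80 in the same test, a fitted value that depends on the handling of near-zero counts and is a description only. In THP-1 it rests on 4 counts in vehicle and 32 in the combination, and in MOLM-13 on 96 and 24 counts.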

How the results depend on the processing

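No direction of a member's call reversed in any setting tried. Counts of members called moved as follows. With LAA in THP-1 the count was 1, and 2 without the filter, with total-count scaling or with DESeq2. With olaparib in THP-1 it was 0, and 1 (ALKBH7) without the filter or with DESeq2; in MOLM-13 it was 0, and 1 (ALKBH7) without the filter. Between the combination and olaparib in MOLM-13 it was 1, with 0 without the filter, 2 with total-count scaling, 2 with the replicate block and 3 with DESeq2. The line difference in the combination's effect had 2, and 1 with DESeq2. The THP-1 interaction had 5, and 3 with the replicate block. Deviations of same-numbered libraries correlated at -0.13 to 0.09 in THP-1 and -0.15 to 0.24 in MOLM-13. Of 18 such pairs per line, 0 in THP-1 and 4 in MOLM-13 were over 0.1. These values do not settle whether the replicate numbers pair the samples.

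Leaving out 1 library at a time, the counts for LAA, olaparib and the combination were 0 to 1, 0 to 1 and 11 to 14 in THP-1. In MOLM-13 they were 1 to 3, 0 to 0 and 5 to 8. Over all genes the same counts were 114 to 209, 15 to 79 and 3476 to 4114 in THP-1. For MOLM-13 they were 113 to 469, 0 to 7 and 1043 to 1578. Combination against LAA gave 8 to 10 in THP-1 and 3 to 7 in MOLM-13, beside 2419 to 3116 and 1029 to 3168 of all genes. Combination against olaparib gave 8 to 11 and 0 to 0, beside 3079 to 3747 and 624 to 918. The interaction gave 2 to 6 and 1 to 2, beside 797 to 1478 and 206 to 496 of all genes. The line differences gave 2 to 3 in vehicle, 0 to 1 for LAA and 1 to 2 for the combination. Over all genes these were 477 to 578, 13 to 22 and 211 to 353. Left-out libraries leave a group with 2, so fewer calls follow in part from fewer samples.

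Over all genes, calls without the filter rose from 243 to 383 (THP-1 LAA), from 44 to 124 (THP-1 olaparib; 96 with DESeq2), from 303 to 502 (MOLM-13 LAA; 527 with DESeq2), from 1 to 194 (MOLM-13 olaparib; 22 with DESeq2, 4 with the replicate block, 0 with total-count scaling) and from 329 to 555 (MOLM-13 interaction; 523 with DESeq2). Line differences went from 24 to 102 for LAA (47 with DESeq2) and from 364 to 603 for the combination (627 with DESeq2), and from 765 to 454 in vehicle with the replicate block. KDM6A had too few counts in THP-1 to be tested there.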
